A study of Mus musculus with 19 samples.

Results

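The 10 genes described here carry calcium and magnesium across the cells of the distal nephron, or make, break down and sense the signals that govern that transport. They are Trpv5, Calb1, S100g, Slc8a1, Trpm6, Pvalb, Vdr, Cyp24a1, Cyp27b1 and Casr, taken by symbol from a table of 40413 genes. All 10 passed the filter on low counts and were among the 16421 genes tested. They were measured by sequencing of polyadenylated RNA from whole kidneys of 19 adult mice, 1 library per mouse. The groups were BPH/2J mice given Cmpd17b (5 mice, 4 of them used here), BPH/2J mice given vehicle (5), BPN/3J mice given Cmpd17b (5) and BPN/3J mice given vehicle (4). BPH/2J is an inbred hypertensive strain and BPN/3J its normotensive counterpart. Cmpd17b, an agonist of formylpeptide receptors, was injected intraperitoneally at 50 mg/kg/day for 28 days. Blood pressure and genetic background go together in the strain comparison and cannot be told apart.

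In the late distal convoluted tubule and connecting tubule, calcium enters the cell through the apical channel TRPV5, is carried through the cytosol by the binding proteins calbindin-D28k (Calb1) and calbindin-D9k (S100g), and leaves through the basolateral sodium-calcium exchanger NCX1 (Slc8a1). Magnesium enters the early distal convoluted tubule through TRPM6, in cells that also hold parvalbumin (Pvalb), another cytosolic calcium-binding protein. The vitamin D receptor (Vdr), bound to active vitamin D, raises transcription of several of these calcium transport genes. CYP27B1 makes active vitamin D, CYP24A1 degrades it, and the calcium-sensing receptor (Casr) reads extracellular calcium, mainly in the thick ascending limb.

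The vitamin D receptor pairs with a retinoid X receptor on repeats of a short half-site, so the reference promoters of the members were searched for it. RefSeq (GRCm38.p6) promoters matched 8 of the 10 members, Calb1 and Cyp24a1 excepted. The 2 shown are that of Slc8a1, the member with the most stable strain difference, and that of S100g, the member with the highest level per length. Each is the 250 bases before the start site, 5′ to 3′ on the gene's strand, and capitals mark the half-site AGGTCA on either strand. They lie at chr17:81738388-81738637 (minus strand) and chrX:162964600-162964849 (minus strand) of that build, and they are reference sequence, not that of BPH/2J or BPN/3J. Whether these start sites are the ones used in kidney was not tested.
Slc8a1: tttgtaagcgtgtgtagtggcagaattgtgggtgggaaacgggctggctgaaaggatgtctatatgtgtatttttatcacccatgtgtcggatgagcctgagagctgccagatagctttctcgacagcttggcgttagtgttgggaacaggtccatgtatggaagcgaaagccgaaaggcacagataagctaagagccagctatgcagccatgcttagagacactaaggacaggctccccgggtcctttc
S100g: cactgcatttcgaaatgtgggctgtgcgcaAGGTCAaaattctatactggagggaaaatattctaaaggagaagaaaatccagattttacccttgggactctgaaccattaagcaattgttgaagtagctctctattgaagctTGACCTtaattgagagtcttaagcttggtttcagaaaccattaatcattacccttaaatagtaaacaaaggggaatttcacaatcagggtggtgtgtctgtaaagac
S100g held 2 copies of AGGTCA, starting 220 and 107 bases before the start site, and was the 1 matched member with any. Of all 32851 promoters in the table, 14% held AGGTCA on either strand in the same window. The full repeat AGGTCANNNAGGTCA was in none of the members' windows and in 0.00609% of all promoters. The variant half-site GGTTCA was also searched on both strands: S100g alone of the matched members held it, once, and 8.85% of all promoters did. Other variants of the half-site were not searched, so members without these words may still hold one.

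Total counts in the 18 libraries used ran from 21400119 to 40998662. Replicate numbers here follow the order of deposit within a group, since the labels give mouse identifiers only. One library, BPH/2J Cmpd17b replicate 1, was left out because its transcripts were those of heart and not of kidney: Myh6, a heart myosin, stood at 14200 CPM (a gene's count relative to its library's total) in it and at most at 28.3 CPM in any other library. Of the members, 9 stood at 3.46% or less of their median level in the other libraries, whereas Slc8a1, which heart muscle also uses, stood at 404 CPM there against at most 176 CPM elsewhere. Other features of the libraries moved with strain. Mitochondrial transcripts took 16.3% to 26.2% of counts in treated and 15.8% to 21.2% in vehicle BPH/2J libraries, against 12.5% to 14.7% in treated and 13% to 16% in vehicle BPN/3J libraries. The 10 most abundant genes took 20.7% to 34.3% and 20.1% to 28.7% in BPH/2J, against 17.2% to 21.2% and 17.5% to 21.6% in BPN/3J. The part of these features in the results below was not tested.

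Per kilobase of exon, S100g was the most abundant member, and Trpv5, Trpm6 and Cyp27b1 were the least. Over the 18 libraries S100g averaged 464 ± 268 CPM per kilobase (SD), Calb1 44.8 ± 12.5 and Vdr 37 ± 7.82. Cyp24a1 followed at 16.9 ± 10.7 CPM per kilobase, Pvalb at 16 ± 4.77 and Casr at 10.8 ± 2.1. Slc8a1 stood at 4.84 ± 2.17 CPM per kilobase, Trpv5 at 2.86 ± 0.661, Trpm6 at 1.62 ± 0.403 and Cyp27b1 at 1.41 ± 0.612. Neighbours in this order that differed by less than the larger of their SDs were Calb1 and Vdr, Cyp24a1 and Pvalb, Slc8a1 and Trpv5, and Trpm6 and Cyp27b1. Lengths came from GENCODE M21, annotation of an earlier build. Each is the union of a gene's exons over all its annotated transcripts, 18.8 kilobases for Slc8a1, and can exceed the length of the transcript made in kidney. The order depends on these lengths. All levels below are in CPM after TMM scaling, not per length.

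**Figure D1:**
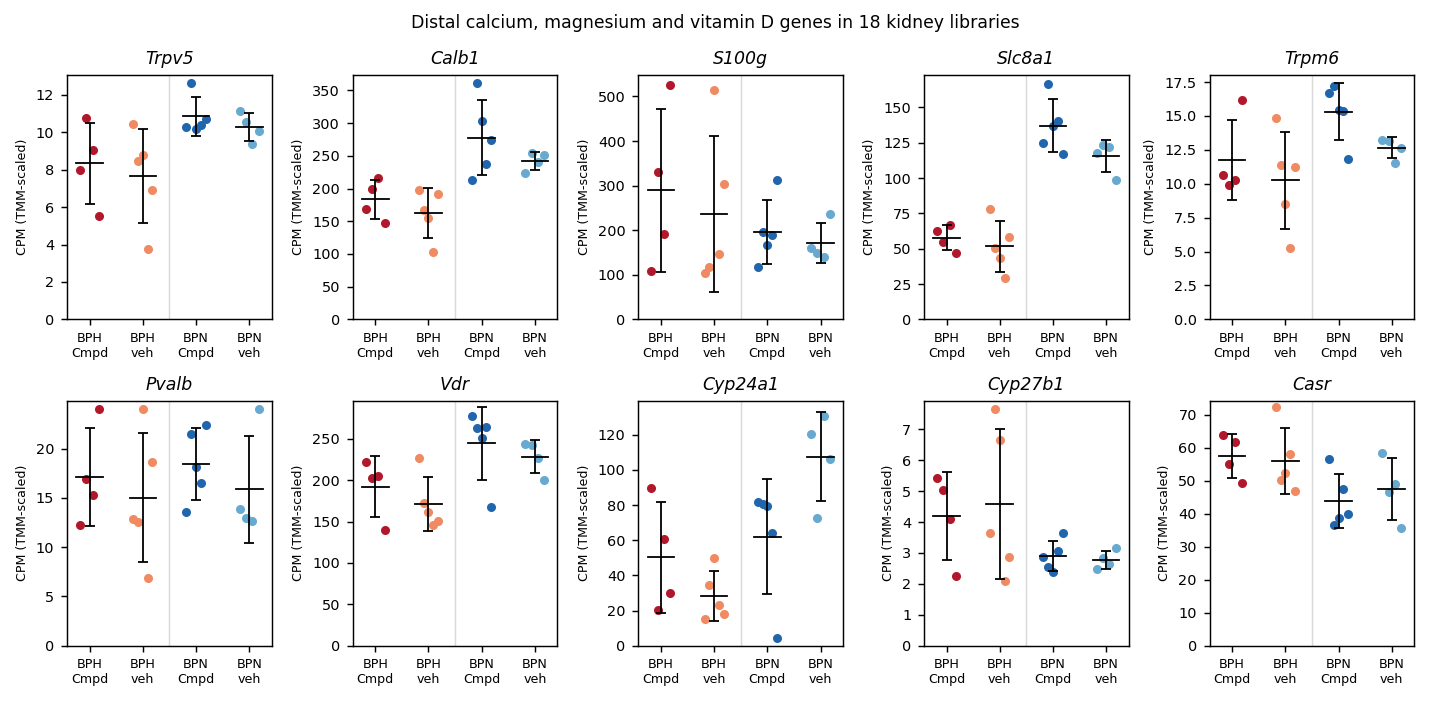
Level of each of the 10 genes in CPM (TMM-scaled, axis from 0), 1 point per library, in treated and vehicle BPH/2J (BPH) and treated and vehicle BPN/3J (BPN) kidneys; bars are mean ± SD (n = 4, 5, 5 and 4). Slc8a1 is at most 77.9 CPM in the 9 BPH/2J libraries and at least 98.6 CPM in the 9 BPN/3J libraries.

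Under vehicle, the strain comparison sets the hypertensive kidney against the normotensive one. Slc8a1, Calb1 and Cyp24a1 were lower in BPH/2J, and the other 7 members did not pass the test. The test was edgeR's quasi-likelihood test with Benjamini-Hochberg adjustment over all 16421 genes and a threshold of 0.05 on the adjusted p. Of all genes tested, 10.8% were called, 4.94% lower and 5.82% higher, against 3 and 0 of the 10 members. The members' log2 fold changes had a median of -0.36, against 0.041 over all genes tested, and 7 of 10 were negative. For the same 3 members every BPH/2J library lay below every BPN/3J library, which held for 6.69% of all genes. In a bulk sample, fewer cells of a type and less RNA per cell cannot be told apart. The members were chosen with the strain results of these data known, so these shares describe them and are no test of the set.

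Slc8a1, the exit step for calcium, had the clearest difference. Its level was 77.9, 50.5, 43.4, 29.3 and 58.3 CPM in vehicle BPH/2J libraries, against 118, 123, 122 and 98.6 CPM in vehicle BPN/3J libraries. The highest BPH/2J library was below the lowest BPN/3J library. The log2 fold change was -1.15 (SE 0.198, edgeR adjusted p 0.000677), or 0.45 of the BPN/3J level. In the annotation 296 exon bases of Slc8a1 lie opposite an antisense gene, whose reads cannot be told apart without strand. The call was kept in all 18 refits that left out 1 library, with log2 fold changes of -1.35 to -1.002. With all 19 libraries in the fit it was lost (edgeR adjusted p 0.41) at the same fold change of -1.15; that fit called 3.43% of its genes under vehicle and 8.75% under Cmpd17b, and 0 members in either.

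Calb1, the larger calcium buffer, was at 197, 167, 155, 103 and 192 CPM in vehicle BPH/2J libraries, against 224, 254, 241 and 251 CPM in vehicle BPN/3J libraries. The groups did not overlap, with replicate 4 the lowest of the BPH/2J libraries. The log2 fold change was -0.57 (SE 0.177, edgeR adjusted p 0.0438). This call lay near the threshold: it was lost in 12 of 18 refits that left out 1 library, where the highest adjusted p was 0.105. The 12 were those without any 1 of the 4 BPN/3J vehicle libraries, BPH/2J vehicle replicates 2, 3 and 4, BPH/2J Cmpd17b replicates 2 and 3, and BPN/3J Cmpd17b replicates 3, 4 and 5. BPH/2J vehicle replicate 4 was the lowest of the 18 libraries in Calb1, Slc8a1, Trpv5, Trpm6, Pvalb and Cyp27b1. Without it, log2 fold changes were -0.45 for Calb1, -1.002 for Slc8a1, -0.24 for Trpv5, -0.13 for Trpm6 and -0.36 for Vdr. For these 5 and for Cyp27b1 (0.90), those were the highest values of the 18 refits. The members' differences thus share this 1 library.

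The entry channel Trpv5 was at 10.4, 8.47, 8.81, 3.77 and 6.92 CPM in vehicle BPH/2J libraries, against 11.1, 10.6, 9.36 and 10.05 CPM in vehicle BPN/3J libraries. The groups overlapped through BPH/2J replicate 1, and the test was not passed (log2 fold change -0.42, SE 0.218, edgeR adjusted p 0.254). S100g, the smaller calcium buffer, ran from 103 to 516 CPM in vehicle BPH/2J and from 141 to 237 CPM in vehicle BPN/3J libraries. Its spread within BPH/2J, a coefficient of variation of 73.9% against 25.8% in BPN/3J, was the widest of the 10 members, and its log2 fold change was 0.47 (SE 0.462, edgeR adjusted p 0.571). The spread went with library composition. S100g was at 516 and 303 CPM in BPH/2J replicates 3 and 5, where the 10 most abundant genes took 28.7% of counts each. In replicates 1, 2 and 4 it was at 103 to 146 CPM, with 20.1% to 22.4%. The part of composition in this spread was not tested. Entry, buffering and exit genes thus did not share 1 outcome: Calb1 and Slc8a1 passed the test, and Trpv5 and S100g did not, with S100g on the other side of 0. Whether the members' differences themselves differ was not tested.

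Of the magnesium and parvalbumin genes, neither passed. The magnesium channel Trpm6 was at 14.9, 11.4, 8.54, 5.26 and 11.2 CPM in vehicle BPH/2J libraries, against 13.2, 13.2, 11.5 and 12.6 CPM in vehicle BPN/3J libraries (log2 fold change -0.30, SE 0.218, edgeR adjusted p 0.428). Pvalb was at 12.9, 12.6, 24.0, 6.83 and 18.7 CPM against 13.9, 12.96, 12.7 and 24.0 CPM (log2 fold change -0.088, SE 0.289, edgeR adjusted p 0.879). The ranges of the strains overlapped for both genes, and the BPH/2J range was the wider one.

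Among the vitamin D genes, Cyp24a1, the enzyme that breaks active vitamin D down, was lower in BPH/2J. It was at 15.1, 34.6, 50.1, 23.1 and 18.1 CPM in vehicle BPH/2J libraries, against 120.2, 72.4, 131 and 106 CPM in vehicle BPN/3J libraries. The groups did not overlap. The log2 fold change was -1.93 (SE 0.562, edgeR adjusted p 0.0328), the largest in size of the 10 members. The call was lost in 7 of 18 refits that left out 1 library, namely BPH/2J vehicle replicates 1, 2, 4 and 5 and BPN/3J vehicle replicates 1, 3 and 4, where the highest adjusted p was 0.085. limma-voom did not call it (adjusted p 0.0672). In the annotation, 83 exon bases of Cyp24a1 overlap Pfdn4 on the other strand, and the counting is not stated to use strand.

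Cyp27b1, which makes active vitamin D, was a low-level gene. It was at 3.66, 7.65, 6.64, 2.11 and 2.85 CPM in vehicle BPH/2J libraries, against 2.49, 2.84, 2.64 and 3.16 CPM in vehicle BPN/3J libraries. Its log2 fold change of 0.72 (SE 0.322, edgeR adjusted p 0.178) did not pass, and BPH/2J replicates 2 and 3 stood well above all other vehicle libraries. Vdr ran from 145 to 227 CPM (median 162) in vehicle BPH/2J and from 200.4 to 244 CPM (median 235) in vehicle BPN/3J libraries. It did not pass either (log2 fold change -0.41, SE 0.164, edgeR adjusted p 0.123). Of the 18 refits that left out 1 library, Vdr was called in 1, that without BPH/2J vehicle replicate 1 (edgeR adjusted p 0.0327).

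Casr, the calcium sensor, was at 72.4, 50.3, 52.3, 58.2 and 46.9 CPM in vehicle BPH/2J libraries, against 58.5, 46.5, 49.1 and 35.6 CPM in vehicle BPN/3J libraries. The groups overlapped, and the log2 fold change was 0.24 (SE 0.16, edgeR adjusted p 0.385). With S100g and Cyp27b1 it was 1 of the 3 members with a positive value.

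**Figure D2:**
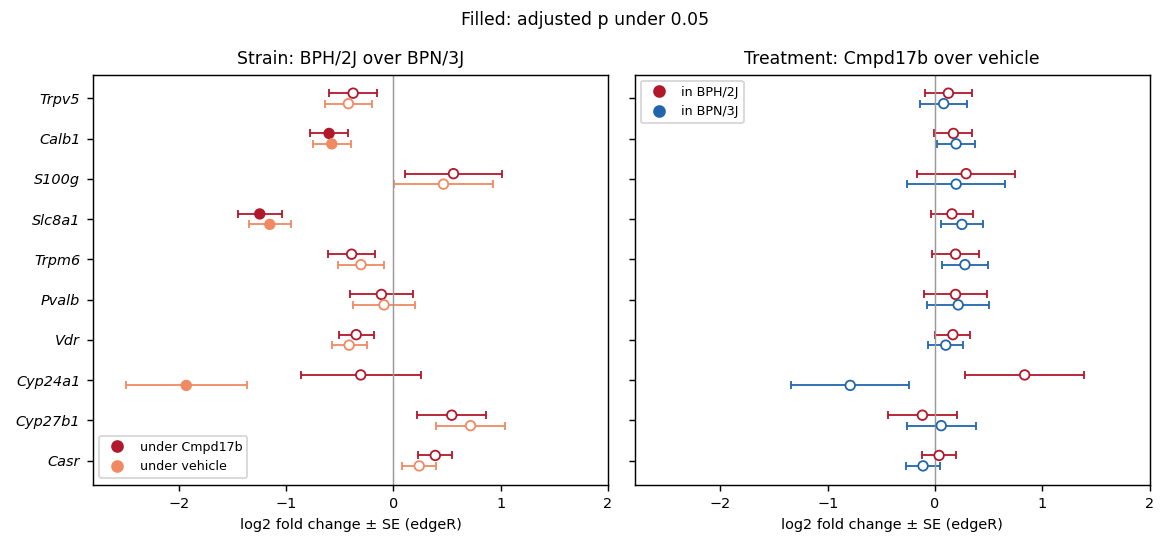
Log2 fold change ± SE (edgeR) of each gene, BPH/2J over BPN/3J on the left (under Cmpd17b and under vehicle) and Cmpd17b over vehicle on the right (in BPH/2J and in BPN/3J); filled points had an adjusted p under 0.05. Slc8a1 and Calb1 are filled in both arms, Cyp24a1 under vehicle alone, and no point is filled for treatment.

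The strain comparison under Cmpd17b uses other mice and repeats the question in treated animals. Slc8a1 and Calb1 were again lower in BPH/2J, and Cyp24a1 was not called. Of all genes tested, 10.4% were called, 4.65% lower and 5.71% higher, against 2 and 0 of the 10 members. Their median log2 fold change was -0.33, against 0.014 over all genes tested. Both arms share 1 fit and its estimates of spread, though no library.

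In treated mice Slc8a1 was at 62.9, 55.0, 66.7 and 46.7 CPM in BPH/2J libraries, against 125, 166, 137, 141 and 117 CPM in BPN/3J libraries. The groups were apart, which held with BPH/2J lower for 6.37% of all genes. The log2 fold change was -1.25 (SE 0.204, edgeR adjusted p 0.000378), and it was -1.33 to -1.16 and called in all 18 refits that left out 1 library. These 4 treated BPH/2J libraries held Myh6 at 24.7 to 28.3 CPM, and vehicle libraries at most 1.19 CPM, and the 14 heart markers summed to 141 to 203 CPM in them, against 6.94 to 13.1 CPM in treated BPN/3J libraries, with 13 of 14 called higher. The part of these markers in the Slc8a1 value was not tested. With the left-out heart-like library in the group, the Slc8a1 value became 0.15 (edgeR adjusted p 0.893). Calb1 was at 169, 199.7, 216 and 148 CPM in treated BPH/2J libraries, against 214, 361, 302, 237 and 273 CPM in treated BPN/3J libraries. The ranges touched, BPH/2J replicate 4 lying just above BPN/3J replicate 1, and the log2 fold change was -0.60 (SE 0.18, edgeR adjusted p 0.0387). That call was lost in 6 of 18 refits, without BPH/2J Cmpd17b replicate 2, 3 or 5 or BPN/3J Cmpd17b replicate 2, 3 or 5, where the highest adjusted p was 0.116.

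Cyp24a1 in treated mice was at 89.8, 20.2, 60.6 and 30.2 CPM in BPH/2J libraries, against 81.6, 80.7, 79.5, 64.0 and 4.55 CPM in BPN/3J libraries. One BPN/3J library, replicate 5, lay far below the 4 others, and the BPH/2J libraries spread from 20.2 to 89.8 CPM. The log2 fold change was -0.30 (SE 0.559, edgeR adjusted p 0.772), and it was -0.60 without BPN/3J replicate 5 (adjusted p 0.335). The interaction, which tests whether the strain difference depends on treatment, gave 1.63 on the log2 scale for Cyp24a1 (SE 0.783, unadjusted edgeR p 0.0524, adjusted p 1). The presence of a call under vehicle and its absence under Cmpd17b was therefore not shown to be a difference between the arms.

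The other members in treated mice kept the signs they had under vehicle, and none passed the test. Casr came closest, at 63.8, 54.9, 61.8 and 49.2 CPM in BPH/2J libraries, against 56.7, 36.5, 38.8, 47.5 and 39.8 CPM in BPN/3J libraries. Its log2 fold change was 0.39 (SE 0.159, edgeR adjusted p 0.137), with the BPH/2J range shifted upward but overlapping. Vdr was at 222, 203, 205 and 139 CPM against 277, 263, 251, 264 and 168 CPM (log2 fold change -0.35, SE 0.165, edgeR adjusted p 0.208). In each strain 1 library, replicate 5, was well below the rest in Vdr. The log2 fold changes of the 5 remaining members were -0.39 for Trpm6, -0.38 for Trpv5, -0.11 for Pvalb, 0.54 for Cyp27b1 and 0.56 for S100g, with edgeR adjusted p of 0.295 to 0.845.

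No member passed the test for an effect of Cmpd17b in either strain. In BPH/2J edgeR called 0 of 10, against 0.164% of all genes tested, and 0 of 10 had an unadjusted p under 0.05. In BPN/3J it called 0 of 10, against 0% of all genes, and again 0 had an unadjusted p under 0.05. Over all genes, 608 had an unadjusted p under 0.05 in BPH/2J and 415 in BPN/3J, and DESeq2 called 41 and 6. DESeq2 and limma-voom also called 0 members in both strains. Log2 fold changes ran from -0.12 for Cyp27b1 to 0.83 for Cyp24a1 in BPH/2J, and from -0.79 for Cyp24a1 to 0.28 for Trpm6 in BPN/3J. The edgeR SEs of these values lay between 0.159 for Casr and 0.556 for Cyp24a1, both on the log2 scale, and set the size of change that could be seen.

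For Slc8a1, treated against vehicle means were 57.8 ± 8.85 and 51.9 ± 18.1 CPM in BPH/2J (SD, n = 4 and 5) and 137 ± 18.9 and 115 ± 11.4 CPM in BPN/3J (SD, n = 5 and 4). For Cyp24a1 they were 50.2 ± 31.5 and 28.2 ± 14.3 CPM in BPH/2J and 62.1 ± 33 and 107 ± 25.4 CPM in BPN/3J. The treated and vehicle ranges overlapped for each of the 10 members in both strains; they were apart for 0.932% of all genes in BPH/2J and 1.78% in BPN/3J. The interaction called 0 of the 10 members with edgeR, against 0.0304% of all genes; 529 genes and 0 members had an unadjusted p under 0.05, and DESeq2 called 15 genes. All 5 genes that edgeR called for the interaction were heart markers (Myh6, Tnnt2, Pln, Myl3 and Ckm), as were 12 of the 27 it called for Cmpd17b in BPH/2J.

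**Figure D3:**
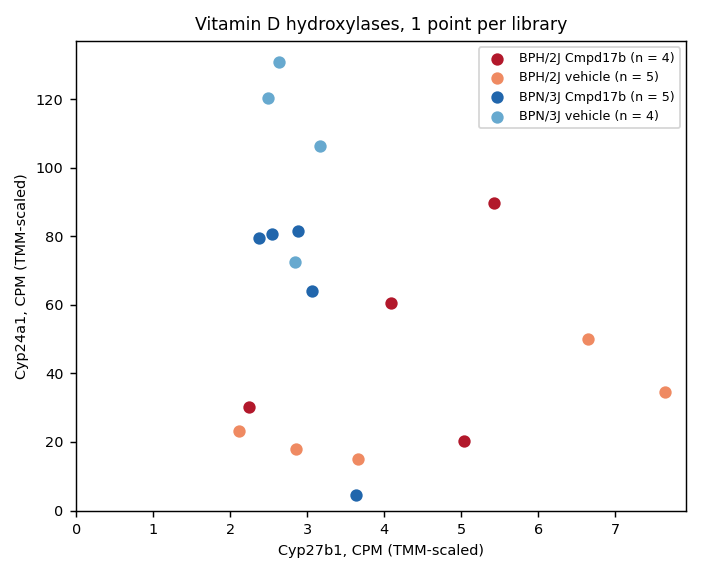
Cyp24a1 against Cyp27b1 in CPM (TMM-scaled), 1 point per library, coloured by group. Vehicle BPN/3J libraries lie at 72.4 to 131 CPM of Cyp24a1 with Cyp27b1 at or below 3.16 CPM, and vehicle BPH/2J libraries at 15.1 to 50.1 CPM of Cyp24a1 with Cyp27b1 at 2.11 to 7.65 CPM.

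Some markers of the distal convoluted tubule differed by strain beside these members. Of 14 tested markers, 3 were lower in BPH/2J (Tmem52b, Acss3 and Cwh43) and 0 higher in each arm, and 11 did not pass. Their median log2 fold change was -0.40 under vehicle and -0.31 under Cmpd17b. Over all genes tested, 4.94% were called lower and 5.82% higher under vehicle, and 4.65% and 5.71% under Cmpd17b. Tmem52b averaged 110.1 ± 33.1 CPM in vehicle BPH/2J and 223 ± 13.1 CPM in vehicle BPN/3J mice (SD, n = 5 and 4), with a log2 fold change of -1.02 (edgeR adjusted p 0.00532). Slc12a3, the thiazide-sensitive cotransporter that defines this segment, did not pass in either arm (log2 fold changes -0.49 under vehicle and -0.59 under Cmpd17b, edgeR adjusted p 0.301 and 0.208). The summed level of the 14 markers ran from 1051 to 1709 CPM in vehicle BPH/2J and from 1439 to 1762 CPM in vehicle BPN/3J libraries. The 12 connecting tubule and collecting duct markers summed to 1063 to 1321 CPM in vehicle BPH/2J and 736 to 978 CPM in vehicle BPN/3J libraries. Of these 12, 1 was called higher (Tfcp2l1) and 0 lower. Their median log2 fold change was 0.067 and 5 were negative, and a sum follows its most abundant genes. Podocyte markers, which belong to the glomerulus, were called higher in BPH/2J for 6 of 8 under vehicle (among them Cdkn1c, Synpo and Podxl, list median 0.84) and for 3 of 8 under Cmpd17b (among them Cdkn1c and Magi2, list median 0.65), with 0 lower. They summed to 169 to 237 CPM in vehicle BPH/2J and 97.1 to 126 CPM in vehicle BPN/3J libraries, and to 137 to 311 CPM in treated BPH/2J and 106 to 184 CPM in treated BPN/3J libraries. Under vehicle, the endothelial marker Pecam1 and the intercalated cell marker Slc4a1 were also higher and the intercalated cell marker Atp6v1b1 lower. The part of these markers in the members' differences was not tested.

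To set the members against that segment, each was divided by Slc12a3 of the same library. The log2 ratio of Slc8a1 to Slc12a3 averaged -2.23 ± 0.232 in vehicle BPH/2J and -1.59 ± 0.069 in vehicle BPN/3J mice (SD, n = 5 and 4). The difference was -0.64 (two-sided exact permutation p 0.00794, the smallest that 5 against 4 allows). In treated mice it was -0.66 (exact permutation p 0.0317, n = 4 and 5). The Calb1 ratio differed by -0.033 under vehicle and -0.00386 under Cmpd17b (exact permutation p 0.849 and 1). Casr, relative to Slc12a3, was 0.82 and 0.99 higher on the log2 scale in BPH/2J (exact permutation p 0.0159 in each arm). Casr itself differed by 0.24 and 0.39 and was not called, and Slc12a3, the divisor, by -0.49 and -0.59. Slc12a3 was lowest of the 18 libraries, at 117 CPM, in BPH/2J vehicle replicate 4. Casr acts mainly in the thick ascending limb, so this ratio does not set it against its own segment. The Cyp24a1 ratio differed by -1.46 under vehicle and 0.56 under Cmpd17b (exact permutation p 0.0476 and 0.667), with opposite signs. The Cyp27b1 ratio differed by 1.12 and 1.05 (exact permutation p 0.0317 and 0.0556). Cyp27b1 itself differed by 0.72 and 0.54 and was not called, so the shift of the divisor is part of these ratios too. Whether Cyp24a1 and Cyp27b1 are expressed in the segment of Slc12a3 was not examined, so their ratios may not set them against their own segment. For the 5 other members, exact permutation p was 0.167 or more in both arms. After adjustment over the 20 ratio tests none was under 0.05, the lowest adjusted p being 0.106. With so few mice, 1 ratio at the smallest possible p could not have passed that adjustment by itself. The adjusted values therefore cannot decide on a single ratio.

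**Figure D4:**
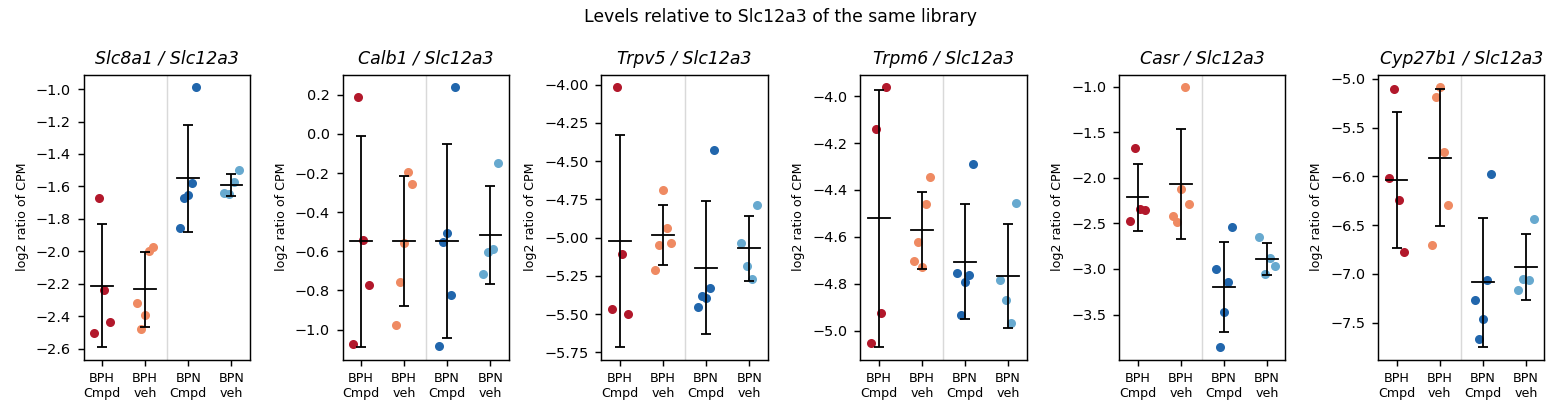
Log2 ratio of 6 members to Slc12a3 of the same library, 1 point per library, with mean ± SD, in treated and vehicle BPH/2J (BPH) and treated and vehicle BPN/3J (BPN) kidneys (n = 4, 5, 5 and 4). The Slc8a1 ratio averages -2.23 in vehicle BPH/2J and -1.59 in vehicle BPN/3J mice, while the Calb1 ratio differs by -0.033.

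Other genes of the same pathways gave a mixed picture between the strains. Over all genes tested, 10.8% were called under vehicle and 10.4% under Cmpd17b, either direction. Of 14 tested calcium transport genes outside the members, 3 were higher in vehicle BPH/2J (Trpv6, Anxa2 and Stc2) and 1 lower (Kl), with a median log2 fold change of 0.13. In treated mice 2 were higher (Trpv6 and Stc1) and 1 lower (Kl), with a median of 0.30. Trpv6, the sister channel of TRPV5, was at 1.89 ± 0.162 CPM in vehicle BPH/2J and 0.679 ± 0.0455 CPM in vehicle BPN/3J mice (SD, n = 5 and 4), a low level in both. Its log2 fold change was 1.47 (edgeR adjusted p 0.00214) under vehicle and 1.60 (edgeR adjusted p 0.000738) under Cmpd17b.

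Kl, which encodes the FGF23 co-receptor klotho, was lower in BPH/2J in both arms. It averaged 389 ± 88.1 CPM in vehicle BPH/2J and 616 ± 40.3 CPM in vehicle BPN/3J mice (SD, n = 5 and 4), and 449.6 ± 84 and 688 ± 92.9 CPM in treated mice (n = 4 and 5). The groups did not overlap in either arm, and the log2 fold changes were -0.66 and -0.61 (edgeR adjusted p 0.0115 and 0.0209). Kl was the 1 gene called among 26 tested genes of vitamin D and phosphate metabolism, in each arm, and their median was -0.16 under vehicle and -0.14 under Cmpd17b. That count is below the share of all genes called, 10.8% and 10.4%.

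Of 21 tested magnesium transport genes, 2 were lower in vehicle BPH/2J (Cnnm1 and Egfr) and 1 in treated BPH/2J (Egfr), with none higher. Neither count was above the share of all genes called, 10.8% under vehicle and 10.4% under Cmpd17b. Egfr, the receptor through which EGF raises TRPM6 activity, averaged 39.9 ± 5.87 CPM in vehicle BPH/2J and 51.8 ± 6.24 CPM in vehicle BPN/3J mice (SD, n = 5 and 4; edgeR adjusted p 0.0472). Of 9 tested thick ascending limb genes for paracellular calcium and magnesium uptake, 0 were called in either arm. Claudin-16 (Cldn16), a pore of that pathway, was at 9.7 ± 0.691 CPM in vehicle BPH/2J and 7.1 ± 0.822 CPM in vehicle BPN/3J mice (log2 fold change 0.45, edgeR adjusted p 0.0904). Cmpd17b moved none of these 4 lists past the test: 0 genes were called in either strain.

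Correlations among members were examined within each strain, and none of the 90 relations passed after adjustment. S100g and Pvalb had a Pearson r of 0.80 and a Spearman rho of 0.82 over 9 BPH/2J libraries (exact permutation p 0.00699 and 0.0108), and an r of 0.85 and a rho of 0.92 over 9 BPN/3J libraries (exact permutation p 0.00156 and 0.00131). Without the 2 libraries farthest from the median of Pvalb, r was 0.97 in BPH/2J and 0.78 in BPN/3J. Calb1 and Slc8a1 had an r of 0.91 and a rho of 0.83 in BPH/2J (exact permutation p 0.00184 and 0.00827) and an r of 0.60 and a rho of 0.22 in BPN/3J (exact permutation p 0.0949 and 0.581). Leaving out the 2 libraries farthest from the median of Calb1 gave 0.73 and -0.31. Other pairs were negative: r was -0.85 for Pvalb and Casr and -0.79 for Calb1 and Casr in BPN/3J. In BPH/2J these were -0.48 and 0.17. These pairs were among 45 pairs examined in each strain, 90 relations in all, and none passed after Benjamini-Hochberg adjustment (lowest adjusted p 0.0826 for Pearson's r and 0.118 for Spearman's rho). Treated and vehicle mice are pooled in them, and libraries share depth and composition.

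Among 11633 candidates, tested genes above a floor of 1 on mean log2 CPM and not predicted loci, the closest log2 CPM profiles over the 18 libraries were those of Osbpl10, Helb and Sbk1 for Slc8a1 (Pearson r 0.97, 0.97 and 0.96) and of Tmem52b, Pepd and Slc37a4 for Calb1 (r 0.93, 0.93 and 0.93). Those closest to Vdr were Atp2a2, Mgat3 and Prkd3 (r 0.97, 0.96 and 0.96), and those closest to Casr were Frem2, Zfp106 and Eif2ak4 (r 0.95, 0.90 and 0.90). Trpm6 was followed by Rxra, Ttbk1 and Hunk (r 0.95, 0.88 and 0.85), Trpv5 by Suclg2, Nmnat3 and Dab2 (r 0.92, 0.91 and 0.89) and Pvalb by Slc34a1, Glyat and Fbxo7 (r 0.90, 0.90 and 0.90). For S100g they were Rps6-ps4, Kxd1 and Taf10 (r 0.96, 0.96 and 0.95), for Cyp24a1 Ppfibp2 and Apaf1 (r 0.82 and 0.76) and for Cyp27b1 C1ql3, Pklr and Ttc27 (r 0.80, 0.78 and 0.75). These r describe likeness over libraries that also differ by strain, and no test was made of them.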

How the data were processed

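The members and gene lists were chosen with earlier results of these data known. Polyadenylated RNA libraries of 19 kidneys, all with batch label 2, were read from 1 table of estimated counts per gene deposited by the authors, not normalized, in which 4.63% to 10.1% of a library's values were not whole. The submitters' processing notes name Trim Galore 0.6.7, STAR 2.7.9a and the build mm39 (GRCm39). No source used here gives the counting tool, its annotation or its use of strand.

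Counts were rounded and tested with edgeR 4.0.16 (robust quasi-likelihood fit, R 4.3.3) in 18 libraries and 4 groups, with TMM factors, filterByExpr (10 counts, and 15 in total) and adjustment by Benjamini-Hochberg. Each SE is the log2 fold change divided by the root of the F statistic. Ratios used log2 CPM with a prior count of 2 and two-sided exact permutation tests. The correlations among members were added after values had been seen. No 2 libraries were alike within sampling noise. Whether mice are independent beyond 1 library each is not stated. Alternatives were DESeq2 1.42.0, limma-voom (limma 3.58.1), DESeq2 size factors, other filters, a fit without robust estimation, only the groups compared, all 19 libraries, a prior count of 0.5 and each library left out. The rule for named genes took all members, up to 4 called genes of each list, relatives in role, and the 3 closest profiles per member; further heart markers were named after their values were seen, and some genes the rule took are not reported here. The tests were checked on simulated data. Figures used matplotlib 3.10.9 under Python 3.11.15.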

Additional observations from a re-analysis of the deposited data

Results flagged for a closer look

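By Dixon's rule on the ratio of gap to range, single libraries stood apart from their group in 5 of 40 gene and group pairs. The rule's rate of about 1 in 20 is for independent, normally distributed values. Since these pairs share libraries, the count is not shown to exceed chance. In BPN/3J Cmpd17b replicate 5, Cyp24a1 was at 4.55 CPM where the 4 others were at 64 to 81.6 CPM, and Vdr was at 168 CPM where the others were at 251 to 277 CPM. The same library had the lowest Slc12a3 (232 CPM), the highest S100g (314 CPM) and the highest Cyp27b1 (3.63 CPM) of its group. Trpm6 was at 16.1 CPM in BPH/2J Cmpd17b replicate 5, above 9.87 to 10.7 CPM in the 3 others, and that library also had the highest mitochondrial share (26.2%) and the highest S100g (526.05 CPM) of the 18. Pvalb was at 24 CPM in BPN/3J vehicle replicate 4, above 12.7 to 13.9 CPM in the others. Trpv5 was at 12.6 CPM in BPN/3J Cmpd17b replicate 2, above 10.2 to 10.7 CPM in the others.

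In BPH/2J Cmpd17b replicate 1, labelled as kidney, which entered no comparison, Slc8a1 was at 404 CPM, and vehicle libraries reached at most 131 CPM, both without TMM factors. The 9 other members were at 1.26 CPM or less in it.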

How the results depend on the processing

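No paired analysis was possible because the labels give no replicate numbers; those used here only name libraries in order of deposit. Slc8a1 was called lower in BPH/2J in both arms under each alternative run on it except the fit with all 19 libraries; the prior count of 0.5 bore on the ratios to Slc12a3 alone. That fit called 566 genes under vehicle, 0 for Cmpd17b in BPH/2J, 0 for the interaction and 0 members in any comparison. In it, the Slc8a1 strain difference under Cmpd17b was 0.15, and Cmpd17b in BPH/2J gave Pvalb -0.13, Trpm6 -0.11, Trpv5 -0.20, Calb1 -0.15, S100g -0.033, Vdr -0.15 and Casr -0.28. Its interaction values were -0.28 for Trpv5, 1.30 for Slc8a1, -0.23 for S100g, -0.25 for Vdr and -0.17 for Casr. DESeq2 called 41 genes for Cmpd17b in BPH/2J, 6 in BPN/3J and 15 for the interaction, against 27, 0 and 5 with edgeR. Without a filter, 1 member was called under vehicle (edgeR adjusted p 0.0528 for Calb1 and 0.114 for Cyp24a1), and with only the compared groups 2 under vehicle and 1 under Cmpd17b, Calb1 being lost in both (edgeR adjusted p 0.0568 and 0.0615). limma-voom turned Cyp27b1 for Cmpd17b in BPH/2J to 0.034 and gave interactions of 0.028 for Pvalb, 0.017 for Calb1 and 0.000785 for Cyp27b1. The cause was not tested for any of these.

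Leaving out 1 library at a time called 1 to 3 members under vehicle and 1 to 2 under Cmpd17b, and 1 to 6 genes for the interaction. Strain differences that changed sign were those of Pvalb (-0.32 to 0.18 under vehicle, -0.32 to 0.017 under Cmpd17b) and S100g (-0.036 to 0.66 under vehicle). For Cmpd17b in BPH/2J they were Pvalb (-0.013 to 0.43), Trpv5 (-0.051 to 0.27), S100g (-0.17 to 0.79), Cyp27b1 (-0.30 to 0.15) and Casr (-0.021 to 0.15). In BPN/3J they were S100g (-0.038 to 0.39), Cyp27b1 (-0.038 to 0.12) and Casr (-0.23 to 0.00335). For the interaction they were Pvalb (-0.30 to 0.21), Trpm6 (-0.27 to 0.087), Trpv5 (-0.13 to 0.19), Calb1 (-0.15 to 0.088), Slc8a1 (-0.24 to 0.10), S100g (-0.37 to 0.60), Vdr (-0.042 to 0.19) and Cyp27b1 (-0.36 to 0.092). Among ratios to Slc12a3 they were Calb1 (-0.12 to 0.089 under vehicle, -0.25 to 0.19 under Cmpd17b), Vdr under vehicle (-0.042 to 0.23), and under Cmpd17b Cyp24a1 (-0.051 to 0.75) and Trpv5 (-0.16 to 0.37). None of the values that changed sign in these refits had passed its test.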
